A study of Mus musculus with 8 samples.

Results

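The genes described here are 44 mouse genes of DNA replication and nucleotide supply. They were chosen by symbol, with earlier results of these data known. All 44 were found among the 20888 genes of the deposited table, and all 44 passed the filter on low values that left 13840 genes for testing. RNA was measured in leukaemic blasts sorted from mouse blood, where the disease was T-ALL, an acute leukaemia of T cell precursors. All the mice carried the Vav-CRE transgene, a recombinase driven by a promoter active across blood-forming cells, so every blood lineage was exposed to it and not T cells alone. The control group held 4 libraries labelled Kdm6b wild type, and the other group held 4 libraries labelled as a homozygous Kdm6b mutant. The question was how gene expression in the leukaemia cells differed between these groups. The sources used here give no age, sex or strain, nor how the leukaemia was started.

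DNA replication starts when the origin recognition complex, CDC6 and CDT1 load the ring-shaped MCM2-7 helicase onto DNA, a step called licensing. The kinase of CDC7 and DBF4, with MCM10, CDC45 and the GINS complex, then turns the loaded ring into an active helicase. DNA polymerases alpha, delta and epsilon copy the strands with the sliding clamp PCNA, while ribonucleotide reductase and thymidylate enzymes supply the deoxynucleotides. Many of these genes are transcribed as cells pass from G1 into S phase, under E2F transcription factors, so their RNA in a bulk sample depends on how many cells are cycling.

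Values are CPM (read counts scaled to a common sum per library). The depth worked out from the steps between low values was 18263180 to 22071010 reads in controls and 14018170 to 18244350 reads in the other group. Every library labelled mutant was thus shallower than every control, although the ranges nearly met, and the part of depth in the results was not tested. Kdm6b RNA, the targeted gene, was 514 ± 135 CPM (SD, n = 4) in controls and 587 ± 92.2 CPM in the other group, so it was not lower in the libraries labelled mutant. Those are called knockout-labelled throughout. Xist, transcribed from the inactive X of female cells, averaged 0.325 ± 0.381 CPM in controls and 386 ± 85.2 CPM in knockout-labelled libraries, while Y-linked Ddx3y averaged 168 ± 34.7 and 0.221 ± 0.22 CPM. Sex and label therefore cannot be told apart in any result below. The labels do not say that the libraries of a group came from separate mice. The p-values thus reflect differences among libraries that may be technical. The 10 T cell markers summed to 11844 to 16421 CPM in controls, lowest in control replicate 4, and to 14095 to 16746 CPM in knockout-labelled libraries. Lck, a kinase of the T cell receptor pathway, was the most abundant. Cd3e, Cd3d and Cd3g were higher in knockout-labelled libraries without overlap, as were 5.23% of all genes, and the other T cell markers overlapped.

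Promoter sequence is shown for 7 genes, since many of the members are known as E2F targets. Of the 44 members, 35 had an entry in the RefSeq promoter table (GRCm38.p6), which gives 250 bases before to 50 bases after each annotated start. Capitals mark matches on either strand to 3 sets of letters. The E2F site was searched as TTTCCCGC, TTTCGCGC, TTTGCCGC or TTTGGCGC, the CCAAT box as CCAAT, and the CHR element, known from genes expressed late in the cell cycle, as TTTGAA. The first 6 windows belong to the member with the lowest p in a role, among members with an entry, for 6 of the 7 roles. The polymerase and primase role, where that member is Prim1, is the one not shown, because at most 6 windows were to be chosen this way, in order of p. Mcm6 was added after the matches had been seen, because its window held the most E2F matches. The windows are Rrm2 at chr12:24708004-24708303 (plus strand), Fen1 at chr19:10204344-10204643 (minus), Cdc45 at chr16:18811923-18812222 (minus), Mcm7 at chr5:138171834-138172133 (minus), Cdt1 at chr8:122567765-122568064 (plus), Ccne1 at chr7:38107441-38107740 (minus) and Mcm6 at chr1:128359656-128359955 (minus).
Rrm2: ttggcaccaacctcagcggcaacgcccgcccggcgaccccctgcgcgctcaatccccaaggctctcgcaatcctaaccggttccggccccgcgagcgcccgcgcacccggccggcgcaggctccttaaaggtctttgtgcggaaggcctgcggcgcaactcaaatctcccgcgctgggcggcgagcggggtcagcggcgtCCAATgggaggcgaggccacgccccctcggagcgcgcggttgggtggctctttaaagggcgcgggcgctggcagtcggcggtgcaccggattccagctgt
Fen1: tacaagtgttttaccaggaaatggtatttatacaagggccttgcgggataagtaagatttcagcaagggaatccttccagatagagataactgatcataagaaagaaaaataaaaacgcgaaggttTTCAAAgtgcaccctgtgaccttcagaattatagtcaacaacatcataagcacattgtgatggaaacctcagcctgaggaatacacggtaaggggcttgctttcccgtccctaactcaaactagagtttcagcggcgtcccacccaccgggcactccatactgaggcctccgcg
Cdc45: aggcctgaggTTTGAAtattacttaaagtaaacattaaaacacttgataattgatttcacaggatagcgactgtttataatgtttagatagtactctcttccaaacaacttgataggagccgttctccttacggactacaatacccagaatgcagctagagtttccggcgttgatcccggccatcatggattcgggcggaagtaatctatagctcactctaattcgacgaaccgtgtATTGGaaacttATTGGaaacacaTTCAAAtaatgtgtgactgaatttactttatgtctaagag
Mcm7: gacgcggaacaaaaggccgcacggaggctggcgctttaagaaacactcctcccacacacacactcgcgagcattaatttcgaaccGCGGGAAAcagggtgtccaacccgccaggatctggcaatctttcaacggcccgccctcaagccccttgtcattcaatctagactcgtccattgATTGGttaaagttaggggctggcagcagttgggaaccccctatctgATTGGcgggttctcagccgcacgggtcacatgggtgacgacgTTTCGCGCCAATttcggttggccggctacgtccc
Cdt1: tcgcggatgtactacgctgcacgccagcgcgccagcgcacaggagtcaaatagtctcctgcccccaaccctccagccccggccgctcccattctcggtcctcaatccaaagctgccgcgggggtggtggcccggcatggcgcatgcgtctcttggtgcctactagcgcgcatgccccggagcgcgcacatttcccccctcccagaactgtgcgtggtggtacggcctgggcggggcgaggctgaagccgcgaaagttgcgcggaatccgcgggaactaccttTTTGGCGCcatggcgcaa
Ccne1: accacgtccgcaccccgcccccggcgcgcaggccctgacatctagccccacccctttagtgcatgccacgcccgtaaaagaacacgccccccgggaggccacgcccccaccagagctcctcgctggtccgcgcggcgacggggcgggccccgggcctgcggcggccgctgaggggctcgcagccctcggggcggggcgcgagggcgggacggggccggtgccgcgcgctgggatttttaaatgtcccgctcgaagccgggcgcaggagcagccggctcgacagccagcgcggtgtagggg
Mcm6: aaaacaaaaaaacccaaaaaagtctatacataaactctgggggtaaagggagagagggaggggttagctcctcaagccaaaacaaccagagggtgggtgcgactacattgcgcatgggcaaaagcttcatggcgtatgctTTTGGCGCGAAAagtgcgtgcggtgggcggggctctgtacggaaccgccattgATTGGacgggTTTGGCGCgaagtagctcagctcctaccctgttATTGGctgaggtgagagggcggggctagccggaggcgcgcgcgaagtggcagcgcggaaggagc

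The printed windows differ in what they hold. That of Rrm2 held 1 CCAAT box and no match to the E2F letters. Mcm6 held 3 E2F matches, of which 2 share 4 bases, and Mcm7 held 2, of which the second runs into a CCAAT box. The E2F match of Cdt1 lies just after the start, Cdc45 held 2 CCAAT boxes and 2 CHR elements, and Fen1 held 1 CHR element. No letters searched were found in the Ccne1 window. Both Fen1 and Mcm7 have a second annotated start whose window is not printed. The printed Fen1 window lies wholly before the GENCODE coordinates of Fen1 given below. Its second window, at chr19:10203872-10204171, reaches into them and held none of the letters searched. No window is given for Pole, Ccne2, Gins4, Mcm4, Gins2, Gins1, Rfc2, Prim2 and Gmnn.

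Across the 35 members with an entry, 13 (37.1%) held an E2F match in at least 1 window, against 2.6% of all 27025 genes in the promoter table. An E2F match was also held by 9 of 29 other replisome and origin genes (31.0%) and 7 of 17 G1 to S regulators (41.2%). A share this high was thus not particular to the members, although only 2 of 28 other nucleotide supply genes (7.14%) held an E2F match. Among MCM2-7 genes 4 of 5 with an entry held one, among licensing genes 3 of 5, among polymerase and primase genes 3 of 6, and among nucleotide supply genes 0 of 5. The 13 genes were Cdc6, Cdt1, Gins3, Lig1, Mcm3, Mcm5, Mcm6, Mcm7, Orc1, Pola1, Pold1, Pole2 and Rfc3. Of the 19 E2F matches in member windows, 12 lay within 50 bases of the start. CCAAT boxes were found for 20 members (57.1%, against 41.1% of all genes) and CHR elements for 7 of the 35 (20.2% of all genes). Among 23 mitosis genes with an entry, 1 held an E2F match, 19 a CCAAT box and 17 a CHR element. A match describes letters in a window and is not a measured binding site. Only exact letters in windows of 300 bases were searched, so a gene without a match may still have an E2F site.

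**Figure D1:**
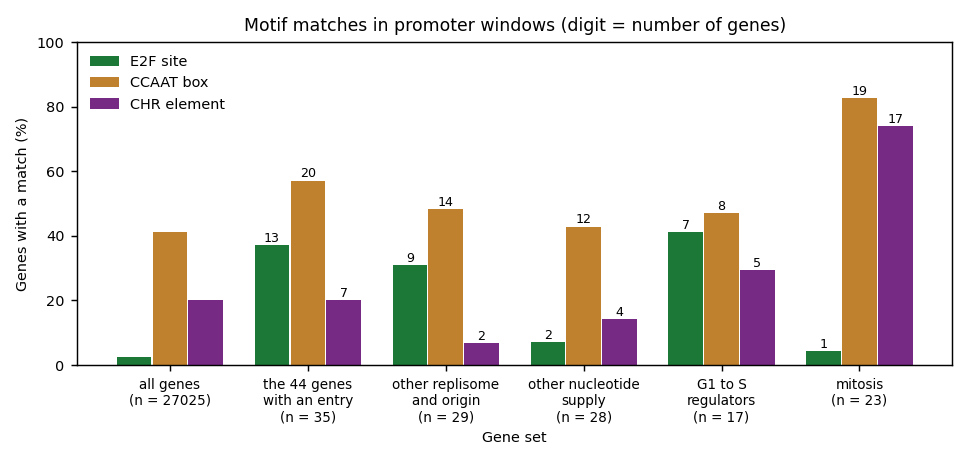
Share of genes (y axis, %) with a match to the E2F site, CCAAT box or CHR element letters in a RefSeq promoter window, for each gene set (x axis); digits on the bars are numbers of genes. The replication genes stood at 37.1% for the E2F letters against 2.6% of all genes, and the mitosis genes at 73.9% for the CHR letters. For the E2F letters, other replisome and origin genes stood at 31.0% and G1 to S regulators at 41.2%.

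Replication and nucleotide supply RNA was lower in the knockout-labelled libraries for part of the set. The set was chosen with earlier results of these data known, so its counts beside the shares of all genes describe it and test no excess. By limma, with Benjamini-Hochberg adjustment over all 13840 genes and a call at an adjusted p below 0.05, 5 of 44 members fell and none rose. The 5 were Rrm2, Fen1, Pole, Rfc5 and Cdc45. Over all genes tested 3.53% were called, 2.32% lower and 1.21% higher. Of those calls 65.8% were lower, and 55.8% under quantile normalization or median-of-ratios scaling. The other 39 members missed the threshold. With an unadjusted p below 0.05, 31 members were lower and 0 higher, against 11.7% and 7.62% of all genes. The estimated log2 change, knockout-labelled minus control on the log2(CPM + 1) scale, was below 0 for all 44 members here, for 42 under quantile normalization, for 43 under median-of-ratios scaling and for 40 without control replicate 4, against 54.8% of all genes. Its median was -0.71 (from -1.58 for Pole to -0.04 for Gins4), against -0.03 over all genes tested. The 4 values of each group did not overlap for 16 members (36.4%), all lower in the knockout-labelled libraries, against 7.97% of all genes lower and 5.23% higher. In bulk RNA, fewer cycling cells and less RNA per cell cannot be told apart.

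The number of called members depended on single libraries. It was 0 when control replicate 1 or any of knockout-labelled replicates 1, 2 and 4 was left out. In those runs 96, 150, 81 and 170 of all 13840 genes were called, against 488 with every library, so calls were lost across all genes. The number of called members was 1 without control replicate 3, 3 without knockout-labelled replicate 3, 10 without control replicate 4 and 17 without control replicate 2. Calls over all genes also fell without control replicate 3 or knockout-labelled replicate 3. They rose above 488 without control replicate 2 or control replicate 4, to 670 in the latter run. These rises were thus not particular to the members. The members whose groups did not overlap became 35 (79.5%, against 11.2% of all genes) without control replicate 2 and 27 (61.4%, against 11.7%) without knockout-labelled replicate 3. Those libraries were the lowest control for 38 members and the highest knockout-labelled library for 31, so a rise was built in. On leaving out any other library the count was 16 or 17, such as 17 (38.6%, against 13.3% of all genes) without control replicate 4.

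**Figure D2:**
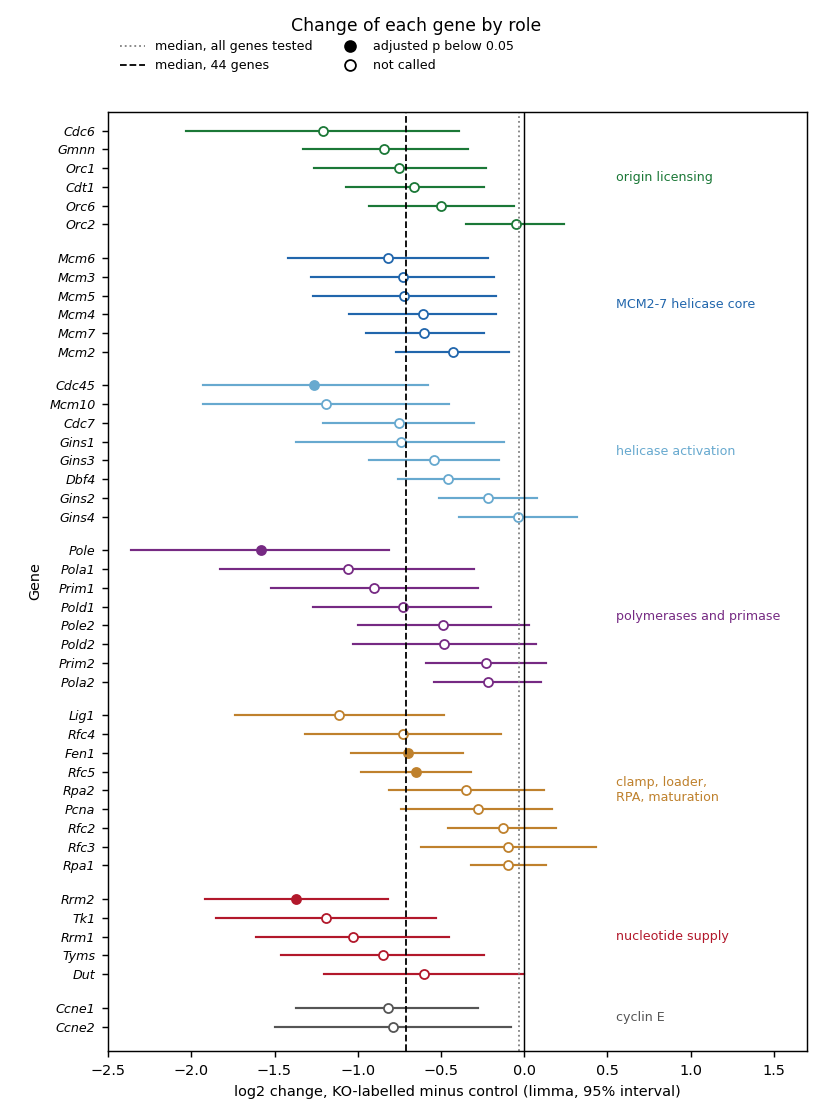
Log2 change of each of the 44 genes (y axis), knockout-labelled minus control on the log2(CPM + 1) scale (x axis), with the 95% interval from limma over 4 libraries per group; filled points are called. Every point lies left of 0, although 2 genes change sign under quantile normalization, the 5 filled points are Cdc45, Pole, Fen1, Rfc5 and Rrm2, and the dashed median of -0.71 lies left of the dotted median of all genes at -0.03.

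Ribonucleotide reductase, thymidylate and dUTP enzymes, the members that make deoxynucleotides, had the largest median change of the roles, -1.03 over 5 genes. Of the 5, 1 fell and 3 had groups that did not overlap, against 2.32% and 7.97% of all genes lower. The median does not extend to nucleotide supply at large, since 30 further genes of that supply had a median of -0.23 and 0 calls. Rrm2 (chr12:24708241-24714146, plus strand, mm10) encodes the small, cell-cycle-regulated subunit of ribonucleotide reductase. It stood at 531, 307, 465 and 701 CPM in control replicates 1 to 4 and at 169, 144, 280.2 and 172 CPM in knockout-labelled replicates 1 to 4. The groups did not overlap, with knockout-labelled replicate 3 nearest to the controls. Rrm2 fell by 1.37 on the log2 scale (SE 0.25, limma adjusted p = 0.0171), the lowest adjusted p among the members. The call was lost when control replicate 1, or knockout-labelled replicate 1, 2 or 4, was left out (adjusted p at most 0.0712). The authors' deposited table of changed genes also lists Rrm2, with a fold of 2.62 for control over knockout.

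The partner subunit Rrm1, the large catalytic subunit, was at 220.4, 148, 195 and 416 CPM in controls and 97.6, 107, 146 and 98.8 CPM in knockout-labelled libraries. The groups were separate only by the gap between control replicate 2 and knockout-labelled replicate 3, and the change of -1.03 ± 0.26 (SE) missed the threshold (limma adjusted p = 0.0601). Tk1, thymidine kinase of the salvage route, was at 65.8, 40.5, 57.3 and 135 CPM in controls and 25.1, 24.9, 39 and 28.9 CPM in knockout-labelled libraries. Its groups also met at control replicate 2 and knockout-labelled replicate 3 without overlapping, and its log2 change was -1.19 ± 0.30 (limma adjusted p = 0.0552). Tyms, thymidylate synthase, averaged 157 ± 76.8 CPM (SD, n = 4) and 80.9 ± 15.7 CPM. Dut, the enzyme that removes dUTP, averaged 182 ± 87.6 and 113 ± 26.1 CPM. The groups of both overlapped, with limma adjusted p of 0.124 and 0.258.

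Of 8 polymerase and primase genes, 1 fell and 4 were lower at an unadjusted p below 0.05, against 2.32% and 11.7% of all genes. The groups of 1 did not overlap, against 7.97% of all genes lower, and the median change was -0.61. Pole (chr5:110286306-110337474, plus strand, mm10) encodes the catalytic subunit of DNA polymerase epsilon, the leading-strand enzyme. Its values were 27, 11.6, 21.3 and 45.8 CPM in controls and 6.42, 6, 11.9 and 5.78 CPM in knockout-labelled libraries. The groups overlapped, because knockout-labelled replicate 3 was above control replicate 2. Pole fell by 1.58 on the log2 scale (SE 0.36, limma adjusted p = 0.0361), the largest estimated change among the members. Fitting no mean-variance trend, or leaving out any of control replicates 1 and 3 and knockout-labelled replicates 1, 2 and 4, raised the adjusted p above 0.05, to at most 0.117. The authors' deposited table lists Pole with a fold of 3.51 for control over knockout; of the 44 members it holds Pole and Rrm2 alone.

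Prim1, the catalytic subunit of the primase that starts each fragment, was at 49.5, 31.4, 45.6 and 103 CPM in controls and 29.3, 25.8, 29.8 and 25.5 CPM in knockout-labelled libraries. Its groups did not overlap, though control replicate 2 lay close to the knockout-labelled values, and its change of -0.90 ± 0.28 had a limma adjusted p of 0.106. The other primase subunit, Prim2, had a smaller estimate, at 70.4 ± 15.5 and 59.2 ± 7.17 CPM (log2 change -0.23, 95% interval -0.59 to 0.13). Pola1, the catalytic subunit of polymerase alpha, averaged 29.6 ± 14.9 and 13 ± 4.8 CPM (log2 change -1.06 ± 0.35, limma adjusted p = 0.124). It lies on the X chromosome. The accessory subunit Pola2 averaged 41.8 ± 6.27 and 35.7 ± 4.31 CPM. For polymerase delta, catalytic Pold1 averaged 89.5 ± 36.7 and 51.8 ± 13.5 CPM and accessory Pold2 averaged 48.8 ± 23.3 and 32.5 ± 3.85 CPM. Pole2, the second subunit of polymerase epsilon, averaged 9.22 ± 2.87 and 6.21 ± 1.41 CPM. None of these 6 was called, and their groups overlapped.

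**Figure D3:**
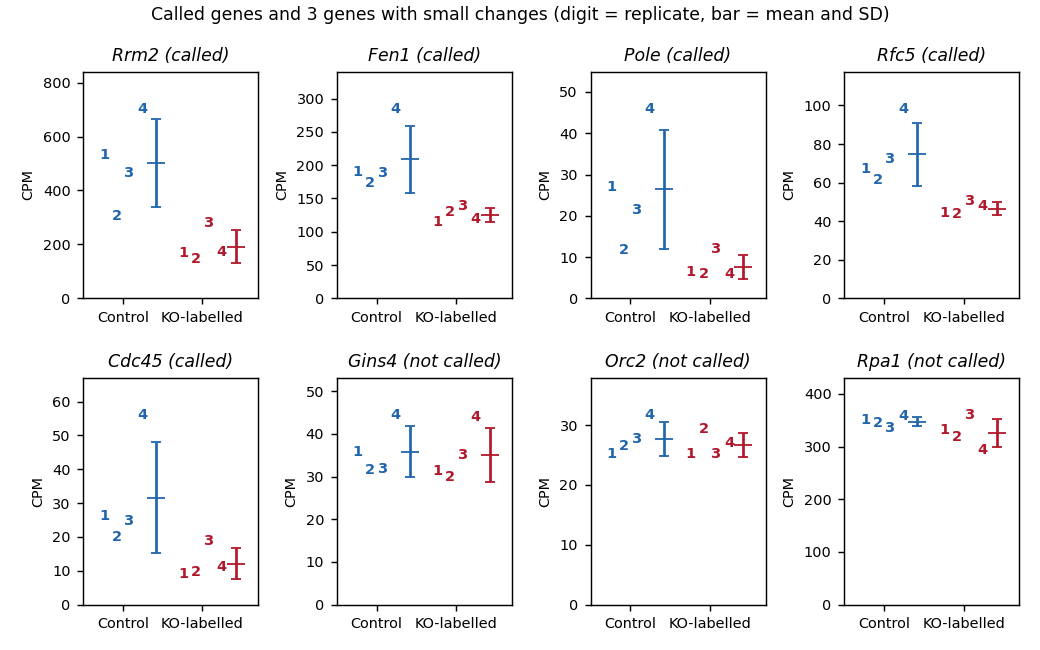
CPM (y axis, from 0) in control and knockout-labelled libraries (x axis; digits are replicates, bars the mean and SD of 4) for the 5 called genes and for Gins4, Orc2 and Rpa1. In the called genes control replicate 4 was highest and, in all but Pole, the groups did not overlap; Rpa1 averaged 347 and 326 CPM.

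The clamp, its loader, the single-strand binding protein and the maturation enzymes had the smallest median change of the roles, -0.35 over 9 genes. Of the 9, 2 fell, against 2.32% of all genes. Fen1 (chr19:10199132-10204169, minus strand, mm10) encodes the flap nuclease that trims Okazaki fragments. It was at 190.4, 173, 188 and 284 CPM in controls and 114, 130, 138 and 119.7 CPM in knockout-labelled libraries. The groups were well apart, with 3 controls close together and control replicate 4 above them. Fen1 fell by 0.70 on the log2 scale (SE 0.15, limma adjusted p = 0.0331). The call was lost with no mean-variance trend and on leaving out control replicate 1 or 3 or any knockout-labelled library (adjusted p at most 0.0949). Of its exon bases, 84.2% are shared with genes on the opposite strand, including Tmem258, and the strand setting of the counting is not given in the sources used here, so its value is uncertain.

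Rfc5 (chr5:117378103-117389047, minus strand, mm10), a subunit of the clamp loader replication factor C, was at 66.9, 61.3, 72.4 and 98 CPM in controls. In knockout-labelled libraries it was at 44.2, 43.7, 50.3 and 48 CPM, all below every control. Rfc5 fell by 0.65 on the log2 scale (SE 0.15, limma adjusted p = 0.0398). The call was lost under quantile normalization, under median-of-ratios scaling, with no mean-variance trend, and on leaving out control replicate 1 or 3 or any knockout-labelled library (adjusted p at most 0.124). Other loader subunits did not pass: Rfc4 averaged 59.4 ± 29.1 and 32.9 ± 4.8 CPM, Rfc2 101 ± 21.6 and 91 ± 8.97 CPM, and Rfc3 35.5 ± 13.5 and 32.2 ± 8.03 CPM.

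Pcna, the sliding clamp, averaged 146 ± 48.1 CPM in controls and 116 ± 18.6 CPM in knockout-labelled libraries, with overlapping groups (log2 change -0.28, 95% interval -0.74 to 0.17). Rpa1, the large subunit of the single-strand binding protein, was at 347 ± 9.67 and 326 ± 27 CPM. Relative to its mean, its SD was the smallest of the members in controls but not in knockout-labelled libraries. Its log2 change was -0.10 with a 95% interval of -0.32 to 0.13. Rpa2, the middle subunit, averaged 62.9 ± 22.5 and 47.8 ± 8.04 CPM. Lig1, the ligase that joins Okazaki fragments, had a larger estimate, 88.2 ± 43.6 against 38 ± 9.77 CPM (log2 change -1.11 ± 0.29), and missed the threshold (limma adjusted p = 0.0624).

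Helicase activation genes numbered 8, with a median change of -0.64. Of the 8, 1 fell and 4 had groups that did not overlap, against 2.32% and 7.97% of all genes lower. Cdc45 (chr16:18780447-18811987, minus strand, mm10) encodes a subunit of the active helicase. It was at 26.1, 19.9, 24.6 and 55.9 CPM in controls and 8.94, 9.63, 18.7 and 11.2 CPM in knockout-labelled libraries. Knockout-labelled replicate 3 came close to control replicate 2, and the groups did not overlap. Cdc45 fell by 1.26 on the log2 scale (SE 0.31, limma adjusted p = 0.0495), just inside the threshold. The call was lost with a pseudocount of 5 CPM, with no low-value filter, with no mean-variance trend, under quantile normalization, under median-of-ratios scaling, and on leaving out any of control replicates 1 and 3 and knockout-labelled replicates 1, 2 and 4 (adjusted p at most 0.15).

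Mcm10, which links the helicase to its activation, was at 30.1, 13.4, 18.6 and 50.1 CPM in controls and 7.96, 8.99, 13 and 12.2 CPM in knockout-labelled libraries. The lowest control and the highest knockout-labelled library nearly met, and the change of -1.19 ± 0.34 was not called (limma adjusted p = 0.0821). Cdc7, the kinase that fires origins, was at 65.4, 54, 70.9 and 94.5 CPM against 48.1, 36.8, 53.7 and 29.6 CPM, again with control replicate 2 beside knockout-labelled replicate 3. Dbf4, its activating subunit, varied little within groups, at 27.5, 25.6, 28.1 and 31.4 CPM in controls and 19.7, 17.9, 21.8 and 21.8 CPM in knockout-labelled libraries. The groups of Dbf4 were clearly apart, but its change was smaller, -0.46 ± 0.14 (limma adjusted p = 0.0968).

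The estimates for the 4 subunits of the GINS complex ran from -0.74 (Gins1) to -0.04 (Gins4). Gins1 averaged 16.9 ± 7.38 CPM in controls and 9.23 ± 2.26 CPM in knockout-labelled libraries, and Gins3 averaged 17.3 ± 3.19 and 11.5 ± 1.44 CPM. Gins2 averaged 111 ± 18.8 and 94.3 ± 6.36 CPM, and Gins4 35.8 ± 5.95 and 35 ± 6.36 CPM. None was called. The 95% interval of the Gins4 change, -0.39 to 0.32, spans 0, and its sign turned under quantile normalization and median-of-ratios scaling. Gins2 was the only member for which control replicate 4 was not the highest control, and 67.3% of its exon bases are shared with Gse1 on the opposite strand.

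All 6 genes of the MCM2-7 ring were lower at an unadjusted p below 0.05, against 11.7% of all genes, and none was called. Their changes ran from -0.82 (Mcm6) to -0.43 (Mcm2), with a median of -0.66. Mcm7 was at 252, 230.4, 255 and 386 CPM in controls and 164, 168, 205 and 192 CPM in knockout-labelled libraries. Mcm2 was at 168, 164, 171 and 264 CPM in controls and 136, 144, 153 and 125 CPM in knockout-labelled libraries. For both, 3 controls lay close together, control replicate 4 stood above them and the groups did not overlap. The limma adjusted p was 0.0697 for Mcm7 and 0.161 for Mcm2. In the remaining 4 ring genes knockout-labelled replicate 3 was above control replicate 2. Mcm3 averaged 163 ± 76.3 and 92 ± 14.2 CPM, Mcm4 154 ± 47.9 and 97.9 ± 16.1 CPM, Mcm5 165 ± 71.4 and 95.3 ± 19.7 CPM, and Mcm6 204 ± 94.7 and 110.1 ± 29.8 CPM. Per kilobase of the principal transcript, control levels of the ring genes ran from 42.8 CPM per kb (Mcm4) to 94.9 CPM per kb (Mcm7). Over all members the control level per kilobase ran from 3.45 (Orc1) to 228 (Rrm2) CPM per kb.

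Origin licensing genes numbered 6, of which none was called, with a median change of -0.70. Of the 6, 5 were lower at an unadjusted p below 0.05, against 11.7% of all genes. The groups of 3 did not overlap, against 7.97% of all genes lower. Cdt1, the loading factor, was at 36.1, 42.4, 41.4 and 57.9 CPM in controls and 19.5, 30.6, 30.7 and 30.7 CPM in knockout-labelled libraries. Geminin, Gmnn, which binds and inhibits CDT1, was at 46.7, 30.3, 39 and 74.6 CPM in controls and 23.6, 23.8, 26.6 and 25.4 CPM in knockout-labelled libraries. Every control was above every knockout-labelled library for both, and the limma adjusted p was 0.0856 for Cdt1 and 0.0701 for Gmnn. Orc1, the subunit of the origin recognition complex whose level follows the cell cycle, was at 7.67, 8.61, 8.79 and 16.5 CPM against 5.43, 4.93, 6.3 and 5.47 CPM. Its groups did not overlap either, and 3 of the 4 controls were only slightly above the knockout-labelled values (log2 change -0.75 ± 0.23, limma adjusted p = 0.105).

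The other licensing genes overlapped between groups. Cdc6, the loading ATPase, had the largest estimate of the role, at 52.5 ± 28.9 CPM in controls and 21.2 ± 9.75 CPM in knockout-labelled libraries (log2 change -1.21 ± 0.37, limma adjusted p = 0.101). Orc6 averaged 61.1 ± 19.2 and 42.1 ± 6.73 CPM. Orc2, a core subunit of the origin recognition complex, averaged 27.7 ± 2.77 and 26.6 ± 1.99 CPM. The 95% interval of the Orc2 change was -0.35 to 0.24, and 29.8% of its exon bases are shared with Nif3l1 on the opposite strand. Cyclin E activates CDK2 at the start of S phase. Ccne1 was at 6.24, 5.72, 7.43 and 13 CPM in controls and 4.19, 3.64, 4.71 and 3.24 CPM in knockout-labelled libraries, without overlap (log2 change -0.82 ± 0.25, limma adjusted p = 0.0957). Ccne2 averaged 29.4 ± 14.5 and 15.6 ± 4.66 CPM with overlapping groups (limma adjusted p = 0.212).

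**Figure D4:**
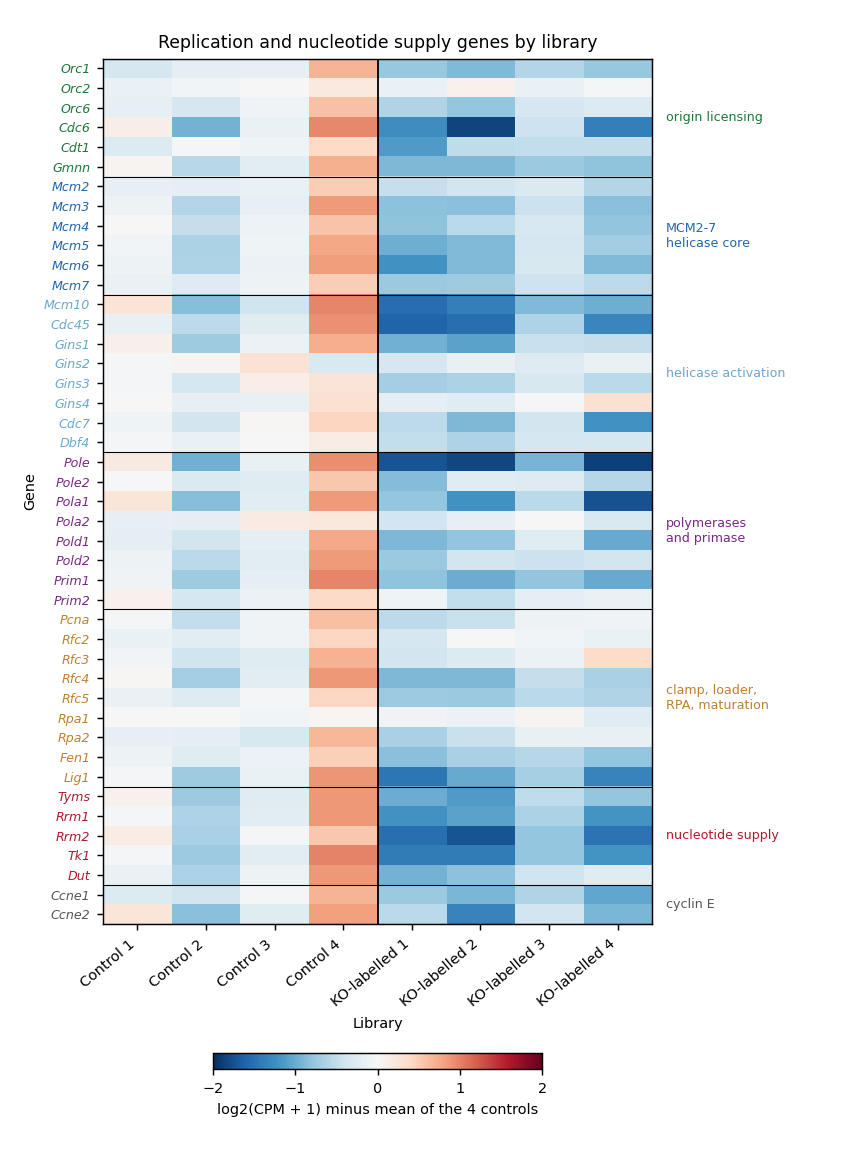
Log2(CPM + 1) of each of the 44 genes (y axis, by role) in each library (x axis) minus the mean of the 4 controls; blue is below and red above that mean, on a scale from -2 to 2. Control replicate 4 is red for 43 of 44 genes, and control replicate 2 and all knockout-labelled libraries are mostly blue.

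The members tended to be high or low in the same libraries of a group. Control replicate 4 was the highest control for 43 of 44 members, against 34.9% of all genes tested, and control replicate 2 was the lowest for 38, against 22.9% of all genes. Knockout-labelled replicate 3 was the highest of its group for 31 members, against 25.2% of all genes. The members' median distance from the control mean, on the log2(CPM + 1) scale, was -0.05, -0.43, -0.13 and 0.68 in control replicates 1 to 4 and -0.78, -0.80, -0.40 and -0.67 in knockout-labelled replicates 1 to 4. Control replicate 2 therefore lay beside knockout-labelled replicate 3, and the medians of the groups overlapped. For the median member, control replicate 4 was 1.92 times the mean of the other 3 controls (range 0.751 to 2.47), against 0.959 for all genes. The mean of those 3 controls was 1.4 times the knockout-labelled mean for the median member (range 0.897 to 2.65). Without control replicate 4 the members' median change was -0.47, against -0.71 with it, and that of the clamp, loader and maturation genes was -0.12, against -0.35.

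Markers of other blood cells summed to less than the T cell markers in every library, and their part in the results was not tested. Erythroid markers summed to 67.2 to 1298 CPM in controls and 191 to 973 CPM in knockout-labelled libraries, with the top value in control replicate 2 (most abundant gene Hba-a2). Neutrophil and monocyte markers summed to 103 to 283 and 94.1 to 231 CPM (Lyz2), NK cell markers to 148 to 392 and 177 to 426 CPM (Gzma), and platelet markers to 4.08 to 9.2 and 5.12 to 17.1 CPM (Itgb3). B cell markers summed to 672 to 819 CPM in controls and 849.5 to 882 CPM in knockout-labelled libraries, so these sums did not overlap. Ighm made up most of that sum, and the group means of Ms4a1, a defining B cell gene, were under the level of 3 reads, although knockout-labelled replicate 3 was above it at 0.384 CPM.

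Whether partner genes differed by unequal amounts was tested for 8 pairs by an exact two-sided permutation test of the log2 ratio, 4 libraries against 4. None was called after adjustment over the 8 pairs, and none had an unadjusted p below 0.05. The smallest p this design allows is 0.0286, which passes the adjustment only if most of the 8 pairs reach it together. The lack of a call therefore does not show that partners changed by equal amounts. The log2 ratio of Pole to Pole2 averaged 1.31 ± 0.47 (SD) in controls and 0.21 ± 0.41 in knockout-labelled libraries, a difference of -1.10 (exact permutation p = 0.0571, adjusted 0.229). That of Mcm2 to Pole averaged 2.94 ± 0.55 and 4.09 ± 0.36 (difference 1.15, exact permutation p = 0.0571, adjusted 0.229). Rrm2 to Rrm1 differed by -0.34 (exact permutation p = 0.114), and Cdt1 to its inhibitor Gmnn by 0.18 (exact permutation p = 0.486). The other 4 pairs, Pold1 to Pold2, Pola1 to Prim1, Cdc7 to Dbf4 and Ccne1 to Ccne2, differed by -0.30 to -0.03.

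Other genes of the pathway were listed by their known roles, with earlier results of these data known. Of 34 further replisome and origin genes, 2 fell and 0 rose, against 2.32% and 1.21% of all genes. Their median log2 change was -0.43, or -0.26 without control replicate 4. Without control replicate 2 the count of called genes was 9. Asf1b, a histone chaperone that works at the fork, fell by 1.06 ± 0.22 (SE) on the log2 scale, from 163 ± 56.9 to 75.1 ± 13.8 CPM (limma adjusted p = 0.0252). Ticrr, which helps CDC45 load, fell from 14.3 ± 7.65 to 4.27 ± 1.01 CPM (-1.40 ± 0.34, limma adjusted p = 0.0483). The Asf1b call was lost with no mean-variance trend and on leaving out any of control replicates 1 and 3 and knockout-labelled replicates 1, 2 and 4, and leaving out any library but control replicate 2 lost that of Ticrr. The Ticrr call was also lost with a pseudocount of 5 CPM, no low-value filter, quantile normalization, median-of-ratios scaling or no mean-variance trend. An unadjusted p below 0.05 was reached by 17 of the 34 that were lower and by 2 that were higher, against 11.7% and 7.62% of all genes. The 2 were Orc4 and Top1, whose values were seen before they were named.

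Of 30 further nucleotide supply genes tested (31 of 32 listed were found by symbol), 0 were called in either direction by limma. At an unadjusted p below 0.05, 1 was lower, against 11.7% of all genes. The median change was -0.23, or -0.05 without control replicate 4. Cad, which starts pyrimidine synthesis, averaged 26.9 ± 18 and 11.7 ± 5.83 CPM (-1.03 ± 0.40, limma adjusted p = 0.189). Shmt2, a mitochondrial enzyme of one-carbon metabolism, averaged 88.9 ± 50.6 and 52.6 ± 13.4 CPM (limma adjusted p = 0.275).

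**Figure D5:**
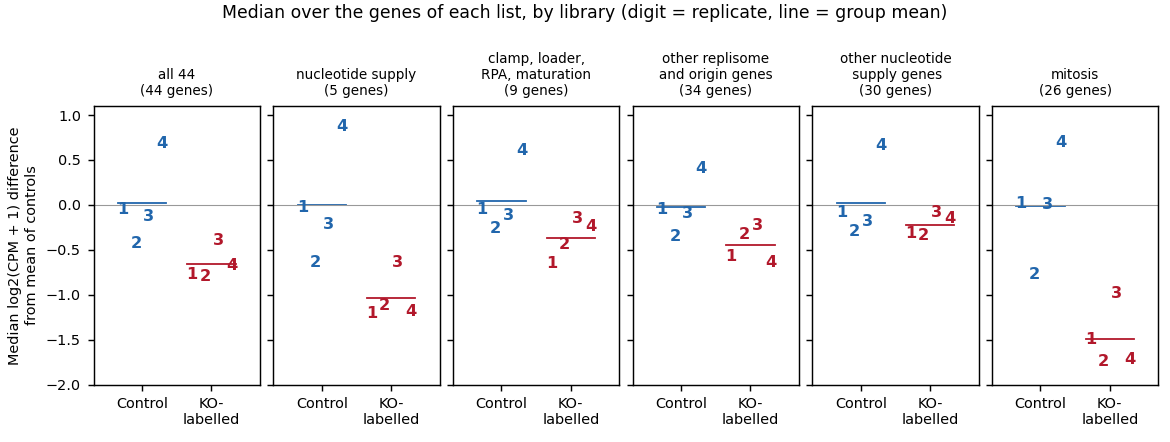
Median over the genes of each list of the log2(CPM + 1) difference from the control mean (y axis) in each library (digits are replicates, lines group means), by group (x axis). Control replicate 4 is highest in each panel, and the knockout-labelled libraries lie at -0.99 to -1.74 for mitosis, -0.40 to -0.80 for all 44 genes and -0.09 to -0.34 for other nucleotide supply genes.

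Mitosis genes were set beside the members as the group most like them. Of 26, 23 fell and 0 rose, against 2.32% and 1.21% of all genes. Groups were apart for 22, against 7.97% of all genes lower, and the median change was -1.52. Kif11, the spindle motor, fell by 1.73 on the log2 scale, from 105 ± 38.5 to 29.8 ± 5.8 CPM (SE 0.24, limma adjusted p = 0.00479). Hmmr, Nek2 and Ube2c, which act on the spindle, the centrosome and the anaphase-promoting complex, fell by 1.78, 1.52 and 1.42 (limma adjusted p of 0.0117, 0.0124 and 0.0126). The count of called mitosis genes was 1 without knockout-labelled replicate 2, 4 without control replicate 1, 5 without knockout-labelled replicate 4, 7 without knockout-labelled replicate 1 and 13 without control replicate 3.

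Regulators of the G1 to S step did not share 1 direction. Of 23, 4 fell and 1 rose, against 2.32% and 1.21% of all genes, and 18 were not called. The median change was -0.33. E2f7, a repressor of E2F targets, fell by 1.60 on the log2 scale (SE 0.32, limma adjusted p = 0.024), and E2f8, its relative, also fell (-1.69 ± 0.38, adjusted p = 0.0361). Cdk2, the partner kinase of cyclin E, fell from 103 ± 9.49 to 66.7 ± 11.2 CPM (limma adjusted p = 0.0323). Skp2, which directs the degradation of cell cycle inhibitors, fell from 32.7 ± 8.27 to 16.8 ± 2.36 CPM (limma adjusted p = 0.035). Cdk6, a cyclin D kinase, rose by 0.56 ± 0.12 (SE) on the log2 scale, from 472 ± 30.6 to 699 ± 77 CPM (limma adjusted p = 0.0296). E2f8 was named after its values were seen. The count of called regulators was 0 when any of control replicates 1 and 3 and knockout-labelled replicates 1 and 2 was left out, 1 without knockout-labelled replicate 4 and 3 without knockout-labelled replicate 3.

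Members with and without the E2F letters in their promoter windows had nearly the same median change. It was -0.73 (-1.21 to -0.10) for the 13 with a match and -0.68 (-1.37 to -0.05) for the 22 without. The 22 may have E2F sites that the search could not find, so regulation by E2F was not tested.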

How the data were processed

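Per the labels' protocols, the NucleoSpin RNA XS kit gave the RNA and the SMARTer Ultra Low RNA kit the libraries. The submitters' processing notes name STAR 2.7.3a, Partek 10.0.22.0524 and build mm10, with annotation, counter and strand setting not given in the sources used here. CPM were deposited by the authors for 20888 genes in 8 libraries, with 0.0001 added to each value, which was subtracted. The authors' deposited list of changed genes holds a signed linear fold (ratio) of control over knockout, with mean CPM per group. Its p and false discovery rate threshold was 0.05 and its fold threshold 2.

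Depth was estimated from what 1 read adds to low CPM values. Between 60.9% and 67.1% of values per library came out whole (tolerance 0.02 reads), which is too few for a count model, so none was used. The level of 3 reads was 0.136 to 0.214 CPM. This covers counting error only.

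The filter kept genes that reached 1 CPM in 4 or more of the 8 libraries. limma 3.58.1 (R 4.3.3) with a mean-variance trend was fitted to log2(CPM + 1), which understates changes of low genes, with two-sided tests and no covariates. Intervals are 95%. Ratios were tested by exact permutation (scipy 1.17.1). Coordinates, transcript lengths and overlaps come from GENCODE vM21 (mm10), which may differ from the authors' annotation; 14 of 44 members share exon bases with a gene on the opposite strand. Promoter windows come from RefSeq.

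The members and lists were chosen with earlier results of these data known. Values in every library are given for members that were called or whose groups did not overlap. Of each other pathway list up to 4 called genes with the lowest p are named, or 2 where none was called. Alternatives were other pseudocounts, filters, scalings and weights, no trend, a replicate block and leaving out each library. Correlations between libraries of a group were 0.9551 to 0.9873 across genes, so none was a duplicate.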

Additional observations from a re-analysis of the deposited data

Results flagged for a closer look

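In 14 of 140 groups of 4 libraries tested, 1 library stood apart by Dixon's gap, which is the distance to the nearest library divided by the range, at a value above its 95% critical value. Chance gives about 1 in 20 such groups. The groups come from the same 8 libraries and many genes moved together, so the flags are not independent and that rate is only a rough guide. In 7 of the 14 the library was control replicate 4.

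Control replicate 4 stood above the other controls for Orc1 (gap 0.873, 16.5 against 8.79 CPM in the next library), Mcm2 (0.931, 264 against 171 CPM) and Mcm7 (0.841, 386 against 255 CPM). The same library stood above the others for Pold1 (0.893, 144 against 74.1 CPM), Rpa2 (0.891, 96.5 against 53.5 CPM), Fen1 (0.84, 284 against 190.4 CPM) and Shmt2 (0.846, 164 against 73.4 CPM). Knockout-labelled replicate 3 stood above its group for Mcm3 (0.974, 113 against 85.3 CPM), Pole (0.897, 11.9 against 6.42 CPM) and Cad (0.88, 20.3 against 9.27 CPM). Knockout-labelled replicate 1 stood below its group for Cdt1 (0.987, 19.5 against 30.6 CPM).

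Summed markers of other blood cells stood apart in 3 groups. Erythroid markers were high in knockout-labelled replicate 4 (0.944, 973 against 235 CPM). Neutrophil and monocyte markers were high in control replicate 2 (0.839, 283 against 132 CPM). NK cell markers were high in knockout-labelled replicate 3 (0.839, 426 against 217 CPM).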

How the results depend on the processing

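The count of called members, 5 here, was 3 under quantile normalization and under median-of-ratios scaling, 15 with array weights and 1 with no mean-variance trend. It ran from 0 to 17 when 1 library was left out. Over all genes tested, 488 were called here, 1313 with array weights and 81 to 670 with 1 library left out. For the other replisome and origin genes the count of 2 became 1 with no low-value filter, quantile normalization or median-of-ratios scaling, 10 with array weights, 0 with no mean-variance trend and 0 to 9 with 1 library left out. Mitosis genes numbered 1 to 26 called with 1 library left out, and G1 to S regulators 0 to 6, or 1 with no mean-variance trend. Other nucleotide supply genes had 0 calls under every alternative run. Partner ratios had 0 calls too, but with 1 library left out the smallest p that the exact permutation test allows is 0.0571. With the replicate block, tested by sign flips of 4 pairs, the smallest p is 0.125. No call was possible in those runs.

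The sign turned for a few small estimates. Orc2 was at 0.04 under quantile normalization and -0.10 to 0.01 with 1 library left out. Gins4 was at 0.04 under quantile normalization, 0.01 under median-of-ratios scaling and -0.15 to 0.07 with 1 library left out, above 0 on leaving out control replicate 4 or either of knockout-labelled replicates 1 and 2. Rfc2 ran from -0.20 to 0.00 and Rfc3 from -0.25 to 0.13, both highest without control replicate 4. The Ccne1 to Ccne2 log2 ratio difference was 0.15 with a pseudocount of 5 CPM and -0.20 to 0.12 with 1 library left out. That of Pola1 to Prim1 ran from -0.30 to 0.02, above 0 only without knockout-labelled replicate 4. The cause of these shifts was not tested.

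Replicate numbers in the labels did not pair the libraries: the correlation of same-numbered libraries ran from -0.102 to 0.176, was over 0.1 in 2 of 4 pairs, and 4 of 8 libraries correlated best with their own number. With the replicate block, 8 members and 509 genes were called. With 4 libraries a group and an SE of up to 0.37 among the members, many of the estimates here lie near the threshold.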
